A study of Mus musculus with 4 samples.

Results

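The nuclear genes that encode subunits of the mitochondrial respiratory chain and the ATP synthase were examined for peaks of arginine-methylated Pontin in glucose-starved mouse embryonic fibroblasts (MEFs). The members were chosen by symbol alone, as the protein-coding genes of the GENCODE vM21 annotation on nuclear chromosomes whose names start with Ndufa, Ndufb, Ndufc, Ndufs, Ndufv, Uqcr, Cox4i, Cox5, Cox6, Cox7, Cox8 or Atp5, together with Sdha, Sdhb, Sdhc, Sdhd and Cyc1. This rule gave 95 of 21938 protein-coding genes, with 94 different symbols, because Atp5o is annotated both as a gene and as a longer read-through entry. Besides structural subunits, the symbols include 8 Ndufaf genes, which encode assembly factors of complex I, and a few related proteins. The series has 4 libraries of wild-type MEFs, namely chromatin immunoprecipitated with an antibody against methylated Pontin and input chromatin, each from cells kept in normal media and from cells starved of glucose, with 1 library per group. Pontin is an AAA+ ATPase of chromatin-remodelling and acetyltransferase complexes. All values below come from the peaks of the starved ChIP library. The ChIP of cells in normal media was left aside, so no value is a change upon starvation, and a peak says nothing about the RNA level of its gene.

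The respiratory chain passes electrons from NADH and succinate to oxygen and pumps protons out of the mitochondrial matrix, and the ATP synthase uses the returning protons to make ATP. Complex I oxidizes NADH, complex II oxidizes succinate, complex III passes electrons to cytochrome c, complex IV reduces oxygen, and complex V is the ATP synthase. A few subunits are encoded by mitochondrial DNA and all others by nuclear genes, many of which are known targets of the nuclear factors NRF1, GABPA, YY1 and ESRRA (ERRα), the latter with the coactivator PGC-1α. Cells without glucose depend on this machinery for ATP from other fuels.

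The sequence feature that stood out in the peaks of these genes was the 7-letter string AAGGTCA, the core site of ESRRA and of related orphan nuclear receptors. It was present on 1 of the strands of 12 of the 33 peaks described below. The matches at 11 of the 12 genes are shown here because this share was far above that of other peaks. Each line gives the gene, the position of the 7 letters in GRCm38, the strand on which they read as written, and 29 bases of that strand 5′ to 3′ with the 7 letters in capitals.
Ndufa11, chr17:56717989-56717995, + strand: gtctggaagcaAAGGTCAgagggcgcgcg
Ndufa11, chr17:56718145-56718151, + strand: gagaaaatgtgAAGGTCAtttcagcgtcg
Ndufa9, chr6:126849006-126849012, + strand: tatgaggaagaAAGGTCAtgttcccgtcg
Ndufb5, chr3:32737258-32737264, - strand: cggaggtccccAAGGTCAcctggaaacag
Ndufc2, chr7:97399618-97399624, - strand: aaaatgaaggtAAGGTCAgcaccagggta
Uqcr10, chr11:4704131-4704137, + strand: caggcgggcccAAGGTCAggatggcccag
Uqcrc1, chr9:108936907-108936913, + strand: agggccgtgggAAGGTCAtggcggagggc
Cox5b, chr1:36691006-36691012, + strand: atagggagttaAAGGTCAgccaggctaca
Cox7c, chr13:86046367-86046373, - strand: gtcggagattgAAGGTCAttggaaacaaa
Cox8a, chr19:7217548-7217554, + strand: aggaccagtccAAGGTCAgggagtcaaga
Atp5c1, chr2:10080176-10080182, - strand: tcaaagagaacAAGGTCAcggtctgatcc
Atp5g3, chr2:73911082-73911088, + strand: aaaagaggcttAAGGTCAagtgtcccccc
Atp5g3, chr2:73911372-73911378, + strand: ggaagacgctcAAGGTCActttgtaacaa

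A gene was counted as having a peak when the centre of a peak lay within 2.5 kb of the start site of any of its transcripts. Of the 95 members, 33 (34.7%, 95% Wilson interval 25.9% to 44.7%) had a peak and 62 had none, against 3747 of all 21938 protein-coding genes (17.1%). The peaks favoured GC-rich promoters throughout the genome, so the members were also compared with other genes of like promoter GC content, taken over the 1000 bp around the gene start. Averaged over classes of 2.5 percentage points of GC with the members' weights, 20.9% of the other genes had a peak, which would give 19.8 of 95 genes. The member share was 13.9 percentage points higher. The weighting did not include the observed to expected CpG ratio of the promoters, whose median was 0.725 in members and 0.551 in all other genes. The part of this ratio in the difference was not tested. Each of the 33 members had its own peak, none had more than 1, and the peaks lay on 18 chromosomes. All intervals cover counting error alone, since reads amplified by PCR are not independent molecules, genes and peaks of 1 library are not replicates, and no test between conditions was possible.

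**Figure D1:**
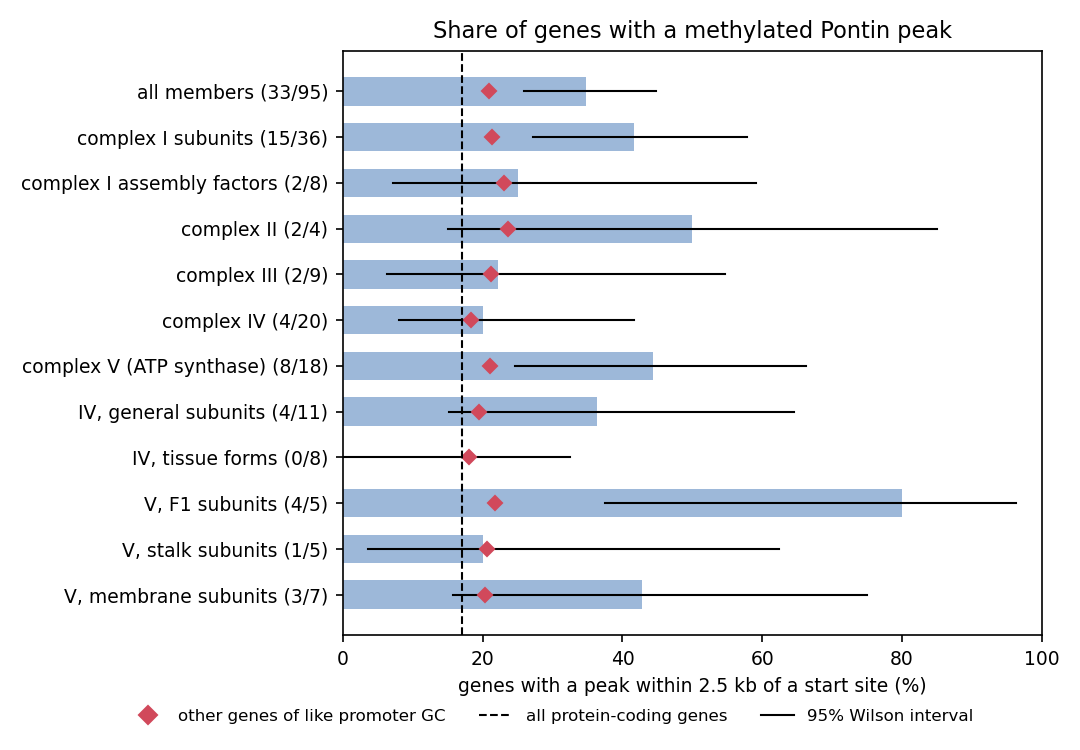
Bars give the percentage of genes whose start sites lie within 2.5 kb of a methylated Pontin peak, for all members, each complex and subgroups of complexes IV and V, with the number of genes in parentheses. Lines are 95% Wilson intervals, diamonds the share in other genes of like promoter GC and the dashed line the share of 17.1% in all protein-coding genes. Among the whole complexes, only the intervals of complexes I and V begin above their diamonds, and none of the 8 complex IV genes grouped as tissue forms has a peak.

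The share with a peak was above that of like genes in complexes I and V. In complexes III and IV and among the assembly factors it was close to that of like genes, but with wide intervals. Of the 36 complex I subunit genes, 15 had a peak (41.7%, interval 27.1% to 57.8%, against 21.3% of other genes of like GC). Of the 18 complex V genes, 8 had a peak (44.4%, interval 24.6% to 66.3%, against 21.1%). Both intervals began above the share of like genes, which depended on the limits set on the peaks. With peaks at least 8-fold over input the shares were 22.2% in complex I and 16.7% in complex V, and their intervals held the shares of like genes, 12.3% and 12.2%. With the 2155 peaks of highest score they were 16.7% and 27.8% against 12.0% and 11.9%, and the interval of complex I again held the share of like genes. The 4 complex II genes, too few for a comparison, included 2 with a peak. The 9 complex III genes included 2 (22.2%, interval 6.32% to 54.7%, against 21.2%). The 20 complex IV genes included 4 (20.0%, interval 8.07% to 41.6%, against 18.3%). Among the assembly factors, 2 of the 8 Ndufaf genes had a peak (interval 7.15% to 59.1%, against 23.0%). The intervals of complex III and of the assembly factors also held the 41.7% and 44.4% of complexes I and V. The differences between complexes were not tested, and the intervals of all 5 complexes overlapped.

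Complex I takes electrons from NADH through a chain of flavin and iron-sulphur centres held by core subunits, which accessory subunits surround. Among its 7 nuclear core genes, 2 had a peak (28.6%, interval 8.22% to 64.1%), near the 22.3% of like genes. These were Ndufs7, which encodes an iron-sulphur subunit near the quinone site and had 13.2 normalized tags (tags in the peak per 10000000 tags of the library), and Ndufs1, which encodes the largest iron-sulphur subunit. The peak of Ndufs1, at chr1:63177064-63177544, had the lowest tag count of all members, 10.4 normalized tags (95% Poisson interval 6.49 to 15.8), with 8.28% of all peaks below it. It was 4.46-fold over input and 4.07-fold over its surroundings in the deposited table, close to the authors' limit of 4-fold. The paper names control input as the comparison for the folds over input, without saying whether it came from starved cells or not. The peak centre lay 471 bp upstream of Ndufs1, in an intron of Eef1b2, which is transcribed in the opposite direction and had a start site nearer to it. An annotated start site of Eef1b2 lay 3 bp from one of Ndufs1. Ndufs3, Ndufs8, Ndufv1, which binds NADH, and Ndufv2 were among the core genes with no peak within reach.

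Accessory subunits of complex I had peaks at 13 of 29 genes (44.8%, against 21.1% of like genes). Ndufb7, whose product lies on the intermembrane side, had the second highest tag count of all members, 26.5 normalized tags (interval 20.0 to 34.5), above 98.3% of all peaks. Its peak, at chr8:83566638-83567118, was centred 120 bp downstream of the start site in a coding exon, 13.7-fold over input and 6.48-fold over its surroundings. Ndufa13, also known as GRIM-19, followed with 23.8 normalized tags (interval 17.6 to 31.4, above 96.4% of peaks), 15.4-fold over input and 4.11-fold over its surroundings, at chr8:69901206-69901686. This peak was centred 1112 bp into the gene and nearer to the start site of Tssk6, and it was the farthest of all member peaks from its gene's start. Both genes lie on chromosome 8, whose 248 peaks had a median of 18.5 normalized tags against 14.2 for the whole list. Relative to that chromosome's median, Ndufb7 stood at 1.43 and Ndufa13 at 1.29. The part of the chromosome in the values of Ndufb7 and Ndufa13 was not tested.

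The other 11 accessory genes with a peak had lower values. Ndufa9, which encodes a subunit near the quinone site, had 20.7 normalized tags and Ndufb9 had 18.1. Ndufb5 had 16.1, Ndufa5 15.7, Ndufs5 14.7, Ndufb3 14.2 and Ndufs4 11.6. Ndufa11, Ndufa12 and Ndufb11 had 12.5 each and Ndufc2 had 12.3. Of these 11, Ndufa9, Ndufb9, Ndufb5, Ndufa5 and Ndufs5 were above the median of all peaks, which was 14.2. The 16 accessory genes without a peak were Ndufa1, Ndufa2, Ndufa3, Ndufa6, Ndufa7, Ndufa8, Ndufa10, the acyl carrier gene Ndufab1, Ndufb2, Ndufb4, Ndufb6, Ndufb8, Ndufb10, Ndufc1, Ndufs6 and Ndufv3. Of these, Ndufb10 had its nearest peak 2933 bp away, Ndufb8 at 7090 bp and Ndufv3 at 7950 bp.

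The highest tag count of all members belonged to an assembly factor. Ndufaf1, which takes part in building the membrane arm of complex I, had 28.7 normalized tags (interval 21.9 to 37.0), above 99.3% of all peaks. Its peak, at chr2:119663103-119663583, was intergenic and centred 516 bp upstream of the start site. It stood 8.50-fold over its surroundings but 4.63-fold over input, so its rank among the peaks was high by tags and low by enrichment over input. Ndufaf8 had 14.7 normalized tags, and Ndufaf2, Ndufaf3, Ndufaf4, Ndufaf5, Ndufaf6 and Ndufaf7 had no peak. The stretch of the Ndufaf1 peak around its centre, on the strand of the gene, is shown because this peak has the highest tag count of the set. None of the 8 strings searched below is in it, so it has no capitals.
Ndufaf1, chr2:119663268-119663417, - strand: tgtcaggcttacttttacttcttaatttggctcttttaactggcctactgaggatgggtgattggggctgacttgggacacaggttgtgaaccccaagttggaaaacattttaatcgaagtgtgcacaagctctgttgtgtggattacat

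In complex II, which links the citrate cycle to the chain, peaks were found at the iron-sulphur subunit gene Sdhb and at the membrane anchor gene Sdhc. The peak of Sdhb, at chr4:140960718-140961198, had 16.4 normalized tags (interval 11.4 to 22.9, above 67.3% of peaks), was 21.2-fold over input and 6.03-fold over its surroundings, and was centred 245 bp upstream. Sdhc had 12.5 normalized tags and 33.0-fold over input. The flavoprotein gene Sdha had its nearest peak 6574 bp away, and Sdhd, the other anchor gene, had none within reach. In complex III, Uqcrc1, a core protein of the complex, had its peak at chr9:108936649-108937129 with 16.4 normalized tags (interval 11.4 to 22.9, above 67.3% of peaks), 10.6-fold over input and 7.69-fold over its surroundings. This peak was centred 3 bp from the nearest annotated start site of the gene. Uqcr10, a small subunit, had 11.3 normalized tags. The redox subunit genes Cyc1 and Uqcrfs1 had no peak, nor did Uqcrb, Uqcrc2, Uqcrh, Uqcrq and Uqcr11, the last of which was 8172 bp from its nearest peak.

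Complex IV has a catalytic core encoded by mitochondrial DNA and a shell of nuclear subunits, several of which exist as a general form and as forms of muscle, testis or lung. Its 4 peaks were all at general subunits, 4 of 11 genes (36.4%, interval 15.2% to 64.6%). This interval held the 19.4% of like genes. Cox8a, a small membrane subunit, had the highest tag count, 18.3 normalized tags (interval 13.0 to 25.1, above 80.4% of peaks), with a peak at chr19:7217147-7217627 centred 156 bp downstream of the start in an intron, 15.8-fold over input and 6.32-fold over its surroundings. Cox7c had 14.9 normalized tags, Cox5a 14.4 and Cox5b 12.8. The general subunits without a peak were Cox4i1, Cox6a1, Cox6b1, Cox6c, Cox7a2, Cox7b and Ndufa4, a protein once assigned to complex I, and Cox6a1 had a peak 7821 bp away. None of the 8 genes grouped as tissue forms, Cox4i2, Cox6a2, Cox6b2, Cox7a1, Cox7b2, Cox8b, Cox8c and Ndufa4l2, had a peak (0 of 8, upper bound 32.4%). That bound lies above the 18.1% of like genes, or 1.45 of 8, so the absence of peaks was within counting error of the share of like genes. Their nearest peaks included one 2905 bp from Ndufa4l2, the first member outside the limit, and one 9842 bp from Cox7a1. The promoters of these genes differed from those of the general subunits, with a median of 1 annotated start site against 3 and a median observed to expected CpG ratio of 0.329 against 0.780. Cox7a2l, a supercomplex assembly protein, had no peak either. Neither Cox7a2l nor Ndufa4l2, a paralog of Ndufa4 grouped here with the tissue forms, was counted as a structural subunit.

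In the ATP synthase, 4 of 5 genes of the F1 part, which carries the catalytic sites and the central shaft, had a peak (interval 37.6% to 96.4%, against 21.8% of like genes). The interval overlapped those of the membrane and stalk genes, and the differences were not tested. The F1 genes with a peak were Atp5a1, encoding the alpha subunit, with 15.2 normalized tags, Atp5d with 14.4, Atp5c1, encoding the gamma shaft, with 14.0, and Atp5e with 11.6. In this order they were 6.54-fold, 5.34-fold, 12.0-fold and 5.98-fold over input, where the median of all peaks was 8.81. The peak of Atp5d lay in an intron of the gene and was counted through a later start site. The gene of the catalytic beta subunit, Atp5b, had no peak within 10 kb. Of the 7 membrane subunit genes, 3 had a peak (42.9%, against 20.3% of like genes), among them Atp5g1 and Atp5g3, which encode the same c-ring protein and had 16.9 and 16.4 normalized tags. The peak of Atp5g3 had the highest fold over input of all members, 42.4, and Atp5k had 12.5 normalized tags. The remaining c-ring gene Atp5g2 had none, nor had Atp5j2, Atp5l and Atp5mpl. In the peripheral stalk, which holds the F1 part in place, Atp5j had the highest tag count of the complex, 17.1 normalized tags (interval 11.9 to 23.7, above 72.8% of peaks). Its peak, at chr16:84835299-84835779, was 7.37-fold over input and 4.07-fold over its surroundings. It was centred 10 bp upstream of the nearest annotated start site of the gene, in an untranslated exon. Atp5f1, Atp5h and both entries of Atp5o had no peak, so that 1 of 5 stalk entries had one (interval 3.62% to 62.4%, against 20.6% of like genes), and neither had Atp5s, a coupling factor that is not a structural subunit.

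The tag counts of the members' peaks were close to those of other peaks. They had a median of 14.7 normalized tags (interquartile range 12.5 to 16.4, range 10.4 to 28.7), against 14.2 (12.0 to 17.3) for all 4311 peaks and 14.9 for the 3161 peaks nearest to protein-coding start sites. With a median of 30.5 tags per member peak, the Poisson interval held the median of all peaks for 29 of 33. The 4 whose interval lay above it were Ndufaf1, Ndufb7, Ndufa13 and Ndufa9, and none lay below. The median fold over input was 8.25 against 8.81 for all peaks, and 19 of 33 were at least 8-fold over input (57.6%), against 55.9% of all peaks.

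**Figure D2:**
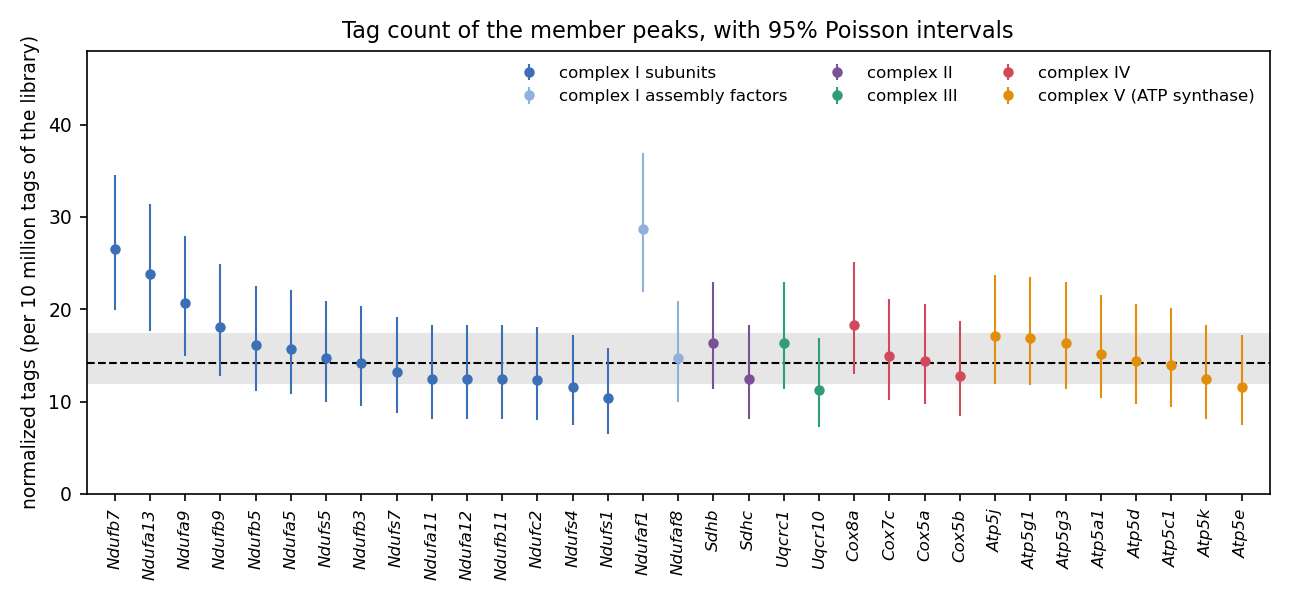
Points give the normalized tags in the peak of each of the 33 members with a peak, in the starved ChIP library, ordered by complex and by value, with 95% Poisson intervals for counting error. The dashed line is the median of all 4311 peaks, 14.2, and the grey band their interquartile range; Ndufaf1, Ndufb7, Ndufa13 and Ndufa9 lie wholly above the line.

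The members' share was above that of other genes in each well-filled class of promoter GC, but mostly within counting error. Between 45% and 50% GC, 4 of 10 members had a peak (40.0%, interval 16.8% to 68.7%) against 9.80% of other genes. Between 50% and 55% the shares were 29.2% of 24 members (interval 14.9% to 49.2%) against 17.7%. They were 35.0% of 40 (22.1% to 50.5%) against 23.5% between 55% and 60%. Between 60% and 65% they were 37.5% of 16 (18.5% to 61.4%) against 25.7%. Only the interval of the lowest of these classes began above the share of other genes, and the rest held it. The member shares of these classes, with wide intervals, lay between 29.2% and 40.0%, whereas the share of other genes was higher at higher GC. The 5 members outside these classes included 2 with a peak, both between 65% and 70%. The number of annotated start sites, which was 4 in the median member and 3 in the median other gene, made little difference. Weighted by GC and by start sites together, 21.4% of other genes had a peak.

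**Figure D3:**
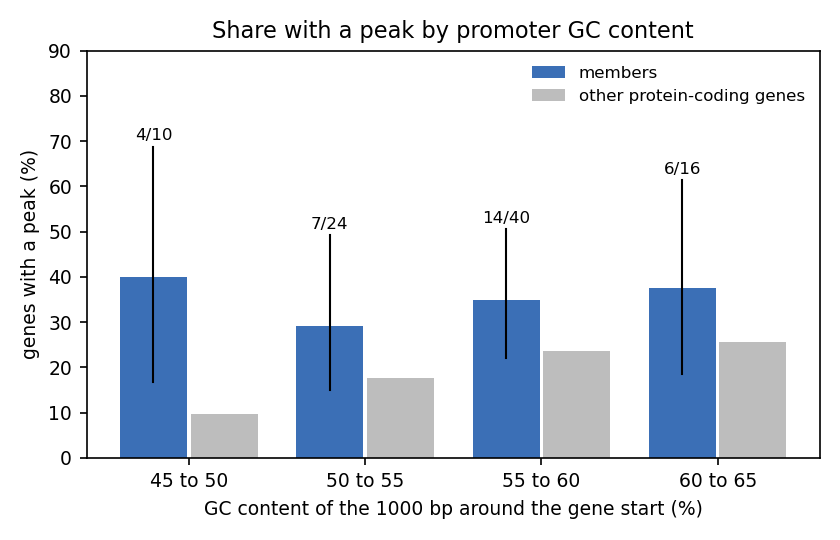
Bars give the percentage of genes with a peak in 4 classes of promoter GC content, for members and for other protein-coding genes, with 95% Wilson intervals and the number of genes above the members' bars. The members' shares lie between 29.2% and 40.0%, each above the share of other genes in its class. Except between 45% and 50%, the members' intervals hold that share.

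Divergent promoters were frequent among the members and bore on the comparison. An oppositely transcribed protein-coding gene started within 1 kb upstream of 34 of 95 members (35.8%), against 10.9% of other genes and 13.7% of other genes of like GC. Among genes with such a neighbour, the members' share with a peak was close to that of other genes, 13 of 34 (38.2%) against 37.5%. Among genes without one, 20 of 61 members had a peak (32.8%, interval 22.3% to 45.3%) against 14.5%. Neither of these shares of other genes was weighted by GC. Weighted to the GC of the 61 members, 20.2% of other genes, with or without such a neighbour, had a peak, just below the members' interval. Weighted in the same way to the GC of the 34 members with a neighbour, 22.0% had a peak. This was also just below the interval of those members, 23.9% to 55.0%. With divergent neighbours included in the weighting, 24.9% of other genes had a peak, and the member share was 9.83 percentage points above it. The member peaks at such promoters included that of Atp5j, which also lay within reach of Gabpa, the gene of a known activator of respiratory chain genes. The centre of this peak was 415 bp downstream of the nearest Gabpa start site. Of the annotated start sites of Atp5j and Gabpa, the closest divergent pair was 93 bp apart. Other member peaks were shared with Haus1 at Atp5a1, with Kin at Atp5c1, with Tatdn1 at Ndufb9, with Vmac at Ndufa11 and with Rbm10 at Ndufb11. At such a promoter a peak cannot be assigned to one of the genes from its position.

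The peaks lay close to the start sites. The median distance from the peak centre to the nearest start site of the member was 168 bp (interquartile range 120 to 420), against 269 bp (127 to 464) for other protein-coding genes with a peak. Within 250 bp lay 21 of 33 (63.6%) against 47.0% of other genes, and 18 peaks (54.5%) were centred downstream of the start against 44.6%. For 27 of the 33 peaks the nearest start site of any gene was that of the member. The other 6 were nearer to Vmac (Ndufa11), Tssk6 (Ndufa13), Rbm10 (Ndufb11), Mrpl47 (Ndufb5), which encodes a mitochondrial ribosomal protein, Tatdn1 (Ndufb9) and Eef1b2 (Ndufs1). The centres were in an intron in 13 cases, between genes in 8, in an untranslated exon in 7, in a coding exon in 4 and in an exon of a non-coding transcript in 1. Among the members without a peak, 8 had one between 2.5 and 10 kb away, all named above, and 24 had none within 100 kb.

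**Figure D4:**
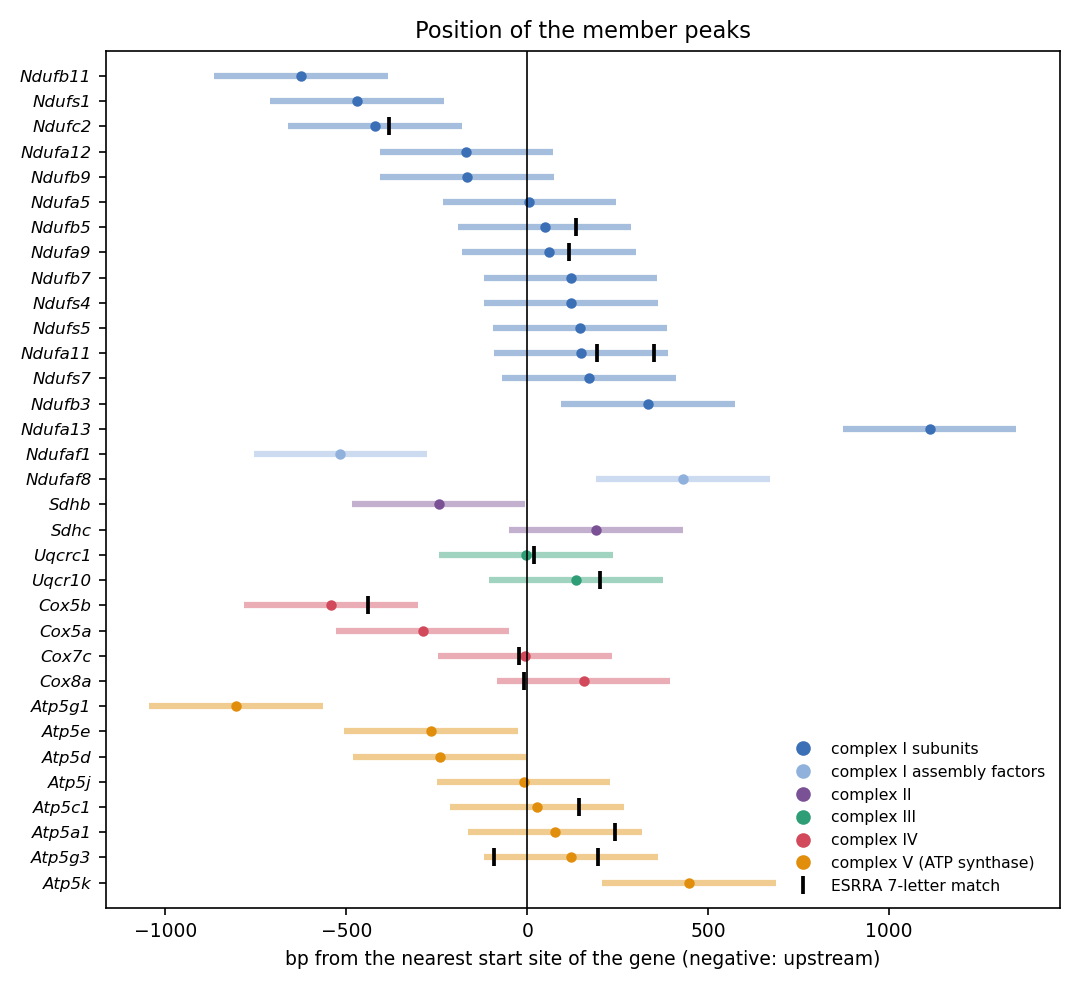
Each bar spans the peak of a member, 481 bp wide, with a point at its centre, by the distance in bp from the nearest start site of that gene, where negative values are upstream. Colours give the complex and black ticks the 14 matches to AAGGTCA; 21 of the 33 centres lie within 250 bp of the start, and Ndufa13 lies farthest from it.

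Motifs were searched as 8 fixed strings on both strands, none of which contains another. ESRRA (AAGGTCA) was present in 12 of 33 member peaks (36.4%, interval 22.2% to 53.4%), against 312 of the 4278 other peaks (7.29%, interval 6.55% to 8.11%). The share was 6.78% in other peaks at protein-coding start sites and 7.07% in other peaks weighted to the members' GC content. In the central 200 bp it was 8 of 33 (24.2%), against 3.25% of all peaks. The 12 genes were Ndufa11, Ndufa9, Ndufb5 and Ndufc2 of complex I, Uqcr10 and Uqcrc1 of complex III, Cox5b, Cox7c and Cox8a of complex IV, and Atp5a1, Atp5c1 and Atp5g3 of complex V. Both peaks of complex III and 3 of the 4 of complex IV thus held the string. The 2 peaks of complex II and the 2 of Ndufaf genes did not. Ndufa11 and Atp5g3 had a pair of matches each, which gave 14 in all, at a median of 80.5 bp from the peak centre, and 9 of the 14 lay downstream of the start site. As the sequences above show, the letters before the string varied. A C lay directly before it in 5 of the 14 matches and TC in 1.

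The string was also frequent at the members that had no peak. In windows of the peak width centred on the gene start, it was present in 13 of the 62 members without a peak (21.0%, interval 12.7% to 32.6%) and in 9 of the 33 with one (27.3%, interval 15.1% to 44.2%). Among other genes it was present in 6.51% of the windows without a peak and 5.01% of those with one. The intervals of the members with and without a peak overlapped, and both began above the shares of other genes. The 13 members were Atp5b, Atp5l, Atp5mpl, Cox6a1, Cyc1, Ndufa2, Ndufb2, Ndufb4, Ndufc1, Ndufs6, Ndufs8, Sdhd and Uqcrq. A match describes letters and says nothing of whether ESRRA was bound.

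**Figure D5:**
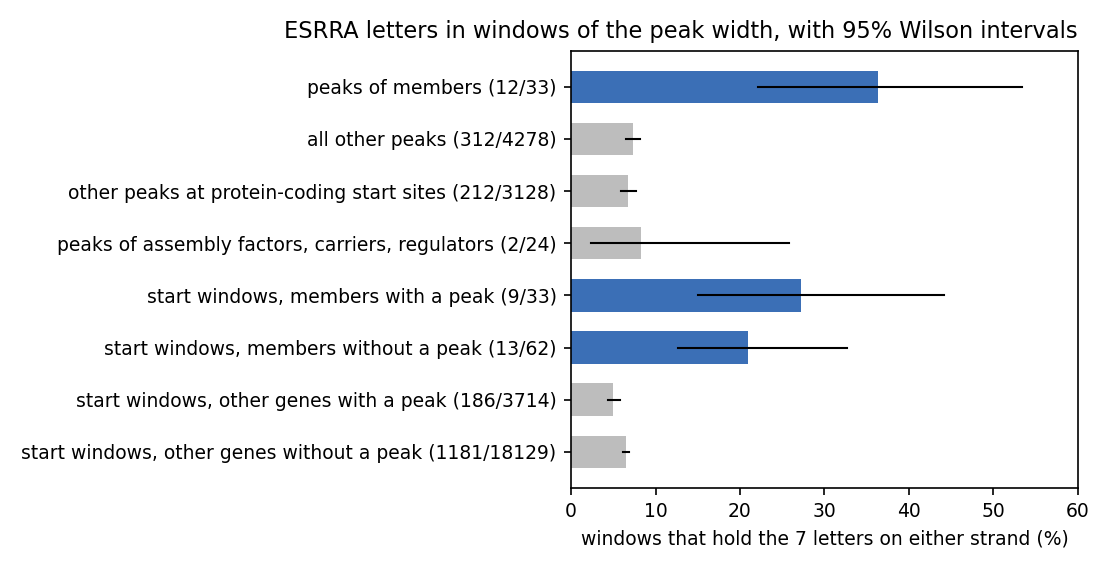
Bars give the percentage of 481 bp windows that hold AAGGTCA on either strand, with 95% Wilson intervals and the number of windows in parentheses, for peaks in the upper rows and for windows centred on gene starts in the lower rows. The members, in blue, lie between 21.0% and 36.4%, and the other sets, in grey, between 5.01% and 8.33%.

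The intervals of the other strings in the member peaks held their shares in all peaks. GABPA (CCGGAAG) and YY1 (AAGATGG) were present in 6 member peaks each (18.2%), against 15.3% and 11.5% of all peaks, and E2F1 (GCGGGAA) in 4 (12.1%) against 9.26%. NRF1 (GCGCATG), TFEB (TCACGTG), CREB1 (TGACGTC) and FOXO3a (GTAAACA) were present in 1 member peak each (3.03%), against 5.17%, 5.73%, 3.71% and 5.08% of all peaks. In the promoters, taken from 250 bp before to 50 bp after the gene start, several strings were more frequent in members than in all genes, with a peak or without. NRF1 was present in 12.1% of the promoters of members with a peak and 14.5% of those without, against 4.96% of all promoters. The shares were 18.2% and 19.4% against 10.8% for GABPA, 15.2% and 11.3% against 6.22% for YY1, and 12.1% and 9.68% against 4.16% for ESRRA. With a peak, the intervals of NRF1 (4.82% to 27.3%) and GABPA (8.61% to 34.4%) held the share of all promoters. So did that of YY1 without a peak (5.58% to 21.5%), and the other intervals of these 4 strings began above it. The shares of all promoters were not weighted by GC. The FOXO3a match is shown because FOXO3a is the factor that the study followed as a partner of methylated Pontin. It lay in the peak of Cox8a, 308 bp downstream of its start site and 152 bp from the peak centre, with the 7 letters in capitals.
Cox8a, chr19:7217232-7217238, + strand: ggccgaacagaGTAAACAaactagcgggc

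Genes that build or regulate the respiratory chain without being subunits had peaks at shares whose intervals overlapped that of the members. Of 42 assembly factors and carriers, 17 had a peak (40.5%, interval 27.0% to 55.5%), against 21.0% of other genes of like GC and 17.1% of all protein-coding genes, with a median of 16.1 normalized tags. They included the complex IV assembly and copper genes Cox15, Cox16, Cox17, Cox18, Cox19, Sco2, Coa3, Coa6, Coa7 and Pet117, of which Sco2 was highest with 21.7 normalized tags and Cox19 lowest with 9.15. The translational activator Taco1, the assembly factors Uqcc1 of complex III and Sdhaf3 of complex II, the complex I factors Nubpl, Acad9 and Foxred1, and cytochrome c itself (Cycs, 16.9 normalized tags) also had one. Of 19 regulators and genes of mitochondrial DNA expression, 8 had a peak (42.1%, interval 23.1% to 63.7%), against 20.4% of other genes of like GC. They were Nrf1 with 12.8 normalized tags, Gabpb1 with 24.8, Gabpb2 with 18.1, Gabpa with the peak of Atp5j, the transcription factor genes Tfb1m and Tfb2m, Mterf3, and the helicase gene Twnk with 18.8. The ESRRA string was present in 2 of the 24 peaks of these lists that were not also member peaks (8.33%), those of Cox18 and Foxred1.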

How the data were processed

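ChIP-seq of methylated Pontin was analysed from the peak list of the glucose-starved ChIP library, which holds 4311 peaks of 481 bp from 20765512 tags. The authors aligned paired-end reads to GRCm38 (mm10) with Bowtie2 and called peaks with HOMER 4.7.2 against an input library. The limits were a false discovery rate of 0.001, a tag threshold of 18 and 4-fold or more over both the input and the surrounding 10 kb. The paper names the comparison as control input. This may be the input of cells in normal media, whose title carries CTL, but neither the labels nor the methods settle it. The folds over input may thus set the starved ChIP against unstarved input. The deposited signal is the authors' tag count per 10000000 tags. The peak score and both folds, against the input and against the surroundings, are the authors' values, the folds being ratios. The other columns of the list (control tags, p-values, the shape of the peak and clonal reads) were not used, and regions below the limits could not be examined.

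Distances ran from the peak centre to the nearest start site of any GENCODE vM21 transcript of the gene. Sequences were read from GRCm38 (RefSeq assembly). Promoter GC was taken over 1000 bp and averaged in classes of 2.5 percentage points. Shares have Wilson intervals and tag counts exact Poisson intervals, both at 95%. The median peak has 29.5 tags, so single values carry a large counting error. No test was made, since the design has 1 library per group. Stretches of 32 bases that occur more than once in the genome made up at most 14% of a member peak and a median of 0%.

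Members and lists were chosen with earlier results of these data known. Each member with a peak is named with its tag count, in full for the 3 highest, the highest of each complex and the lowest, and members without a peak are named, except an item not reported here, with the distance where a peak lay between 2.5 and 10 kb. Alternatives varied the distance, start sites, peak limits, GC classes, gene set and motif window. The weighting was tested on simulated data. The work used pandas 2.3.3, pysam 0.24.0, matplotlib 3.10.9, NumPy 2.4.6 and SciPy 1.17.1 under Python 3.11.15.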

Additional observations from a re-analysis of the deposited data

How the results depend on the processing

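With stricter peaks the shares fell for members and other genes alike. With peaks at least 8-fold over input, 20.0% of members had one, 22.2% in complex I and 16.7% in complex V. With the 2155 peaks of highest score, 18.9% of members had one, and 16.7% in complex I. The difference from other genes of like GC was then 7.95 and 7.17 percentage points. Under the other planned settings run for it, it lay between 9.83 and 16.8. In the central 200 bp of the member peaks, NRF1, FOXO3a and CREB1 were present in 0% and GABPA and YY1 in 3.03%, as the window is shorter. For ESRRA, longer strings chosen after seeing the data, with C and with TC before the 7 letters, were present in 15.2% and 3.03% of member peaks, against 2.88% and 1.10% of other peaks. Counted for the nearest gene only, the member share was 28.4%. Without tissue forms and genes that are not structural subunits it was 40.3%. For the difference these settings, chosen after seeing the data, gave 12.0 and 19.2 percentage points, and those with the nearest peak edge and without the read-through entry 13.8 and 14.2. The difference was positive in all settings named here. No paired analysis was possible because each group has 1 library.

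A single library without replicates gives no spread between cultures, and the list cannot show weaker sites.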

Other observations

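After the ESRRA share had been seen, all 8192 strings of 7 letters, each counted with its reverse complement, were ranked by the number of member peaks that held them beyond the number that their share in the other peaks would give. AAGGTCA ranked 1, with 12 peaks against 2.41. The next were CCCCCGC with 12 against 4.77 and CGGGGAC with 11 against 3.91, and CAAGGTC, which overlaps the ESRRA string, ranked 8 with 8 against 2.21. Only 4 strings were present in 12 or more of the 33 peaks. The ranking is a description of these 33 peaks, whose number is small against the number of strings.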
